A study of Mus musculus with 23 samples.

Results

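The ADAMTS genes encode secreted zinc proteases, and 10 of them were followed here in cultured mouse astrocytes given the thyroid hormone T3: Adamts1, Adamts4, Adamts5, Adamts9, Adamts20, Adamts10, Adamts16, Adamts17, Adamts2 and Adamts12. They are 10 of 38293 genes in the count files, and all 10 were among the 16087 genes tested. The genes were listed by name and chosen by earlier results of these libraries, all from their read counts. Those results included the T3 change of Adamts5 at 6 h, that of Adamts17 at 24 h, and a difference between the times in the T3 effect on Adamts16 and Adamts17. The T3 comparisons at 6 h and at 24 h and the difference between them are therefore described by levels and fitted changes, with no p-value.

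Astrocytes, the star-shaped glia of the brain, came from the neocortex of 3-day-old mouse pups of a hybrid strain background (BALB/c+C57BL/6 together with 129/OLa+129/Sv) and grew for 7 days, and the submitters put their enrichment above 95%. All cells spent 24 h in medium with 0.1% serum freed of thyroid hormone. The 6 groups were 6 h control and 24 h control (no T3), 6 h T3 and 24 h T3 (10 nM T3), 6 h CHX (8 µg/ml CHX, no T3), and 6 h CHX plus T3 (CHX added 30 min before 10 nM T3). CHX is taken to be cycloheximide, which blocks protein synthesis. Each group had 4 libraries, apart from 24 h T3 with 3. Since no label ties a replicate to its own culture or litter, a p-value here speaks only for the spread among these libraries, and that spread may be technical.

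ADAMTS proteases carry thrombospondin type I repeats beside their protease domain and act on the matrix around cells. They are made as proenzymes that furin-like proteases trim, and tissue inhibitors such as TIMP3 block several of them. In the brain, the aggrecanase branch cuts the lecticans brevican, neurocan, versican and aggrecan, hyaluronan-binding proteoglycans of the loose matrix and of the nets around neurons. Other branches trim procollagens or act at fibrillin microfibrils.

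Gene counts per library ran from 13843040 to 22997873. The 8 astrocyte markers summed to 6516 to 10330 CPM (counts relative to the scaled depth) over all libraries. Markers of other cells were also present. Their sums were 409 to 527 CPM for 6 neuron, 137 to 406 for 6 oligodendrocyte lineage, 148 to 224 for 4 mural, 44.1 to 323 for 6 fibroblast and meningeal, 15.6 to 66.1 for 4 endothelial and 11.4 to 44.6 for 6 microglia markers. By the lane token of the file names, the 6 h control, the 6 h T3 and 6 h CHX replicates 1, 2 and 3 were on lane 5, and all others on lane 6, except 24 h T3 replicate 3 on lane 7. In 24 h T3 replicate 1, reads without a unique place made up 42.3% of the file (37.5 and 37.3% in replicates 2 and 3), and all 10 ADAMTS genes had their lowest value of that group in this library. In 6 h control replicate 4 that share was 42.1%, and 6 of the 10 genes were lowest there within its group. Chi-square per degree of freedom over gene counts was 28.5 and 35.85 for 24 h T3 replicate 1 against replicates 2 and 3. No other pair within a group exceeded 15.64.

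Per length of exon, Adamts1 was the most abundant of the 10 in every group, and what stood beside it differed between the groups. In 6 h controls it was at 21.2 ± 1.28 CPM per kb (SD, n = 4), 66.7% of the members' summed level, with Adamts9, Adamts5, Adamts4 and Adamts2 next at 2.65, 2.23, 1.99 and 1.71 CPM per kb; the ranges of neighbours among those 4 overlapped. Adamts16 was lowest at 0.0966 ± 0.0172 CPM per kb (SD, n = 4). The sum over the 10 genes was 31.8 ± 0.966 CPM per kb (SD, n = 4) in 6 h controls, all on lane 5, and 21.2 ± 1.38 (SD, n = 4) in 24 h controls, all on lane 6. In 24 h T3 it was 31.8 ± 5.25 (SD, n = 3), with Adamts1 at 23.4%, Adamts17 at 20.5% and Adamts5 at 15.2% of it. There the ranges of Adamts1, Adamts17 and Adamts5 overlapped in that order, while in 24 h controls Adamts17 had ranked 8 of 10. In 6 h CHX plus T3, Adamts5 made up 31.2 ± 0.835% of the sum (SD, n = 4).

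**Figure D1:**
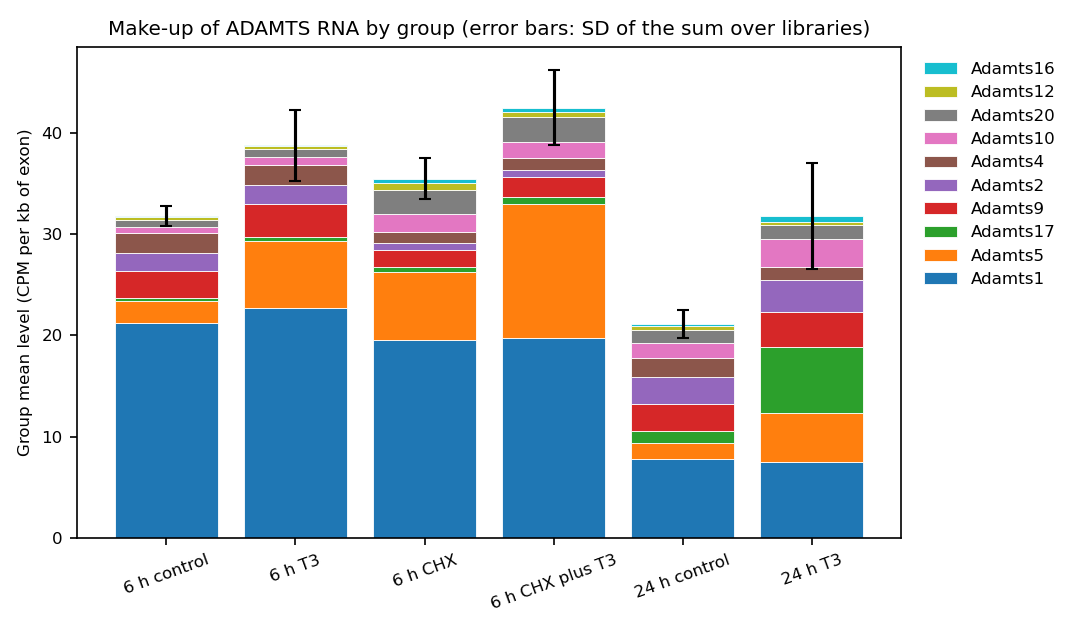
Stacked bars give the group mean of each ADAMTS gene in CPM per kb of exon, and the error bar is the SD of the sum over libraries (4 per group, 3 for 24 h T3). Adamts1 takes 66.7% of the sum in 6 h controls and 23.4% in 24 h T3, where Adamts17 takes 20.5%.

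For 6 of the 10 genes the RefSeq promoter table for GRCm38.p6 holds a sequence, and for Adamts4, Adamts5, Adamts10 and Adamts16 it does not. Of the 6 genes with a sequence, 5 have a table start within 100 bases of the start of the annotated gene. For Adamts20 it lies 61.1 kb inside the gene. The 250 bases before the start of Adamts17 and Adamts1 are shown, because these members had the largest span of group means and the highest level. Both read 5′ to 3′ on the gene's own strand: Adamts17 from chr7:66839485-66839734 (plus strand, GC content 54.4%) and Adamts1 from chr16:85803114-85803363 (minus strand, GC content 65.6%). Capitals mark matches on either strand to the letters of 4 known elements. The TATA box was searched as TATAAA. The E-box was searched as its palindrome CACGTG, and the GC box that Sp1 binds was searched as GGGCGG. The core of the cyclic AMP element was searched as TGACG.
Adamts17: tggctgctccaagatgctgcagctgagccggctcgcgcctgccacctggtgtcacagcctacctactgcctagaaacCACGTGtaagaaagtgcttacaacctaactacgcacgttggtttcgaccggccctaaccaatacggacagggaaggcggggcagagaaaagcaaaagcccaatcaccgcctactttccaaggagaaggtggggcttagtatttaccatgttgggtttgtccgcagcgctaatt
Adamts1: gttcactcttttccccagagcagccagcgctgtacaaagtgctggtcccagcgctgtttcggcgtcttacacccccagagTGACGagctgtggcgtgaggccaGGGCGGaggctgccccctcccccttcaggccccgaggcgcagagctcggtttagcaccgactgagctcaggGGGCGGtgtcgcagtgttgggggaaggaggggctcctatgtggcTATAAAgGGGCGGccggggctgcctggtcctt
Adamts17 held 1 match, an E-box 173 bases before the start, and Adamts1 held a TATA box 32 bases before it, 3 GC boxes that begin 147, 76 and 25 bases before it, and the cyclic AMP core 170 bases before it. Of all 32851 promoter windows of this length in the table, 6.02% held the E-box, 12.4% the TATA box, 32.7% the GC box and 17.8% the cyclic AMP core. The core that thyroid hormone receptors bind, AGGTCA, was in none of the 6 windows (5 without that of Adamts20) and in 14% of all, and 2 copies of it in the same direction with any 4 bases between were in 5 windows of the table. Adamts4, Adamts5, Adamts10 and Adamts16 had no window, so nothing is known here of this core near them. The matches in all windows are of letters only and say nothing of binding.

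In counts of calls (edgeR's quasi-likelihood F test over all 16087 genes, Benjamini-Hochberg adjusted p under 0.05), T3 at 6 h had 1 member higher and none lower, where 3.77% of all genes were called, 2.61% higher and 1.16% lower. T3 at 24 h had 5 higher and 1 lower, with 7.09% of all genes called, 4.41% higher and 2.68% lower. In the T3 effect at 24 h minus that at 6 h 2 members were called, both higher, with 0.839% of all genes called, 0.541% higher and 0.298% lower. Nothing is read from these counts, since such results were known when the genes were listed. T3 with CHX had 1 member higher, against 1.29% of all genes called, 1.16% higher and 0.131% lower. CHX alone had 6 members higher and 3 lower, against 67.5% of all genes called, 37% higher and 30.6% lower, so that most genes of any kind were called there. The median change with CHX was 1.04 log2 over the members and 0.06 over all genes. When the T3 effect with CHX was set against that without it, no member was called by edgeR or by DESeq2, with 1.22% of all genes called by edgeR, 0.584% higher and 0.634% lower. At an unadjusted p under 0.05 there were 3 members (Adamts5, Adamts10 and Adamts12) and 13.4% of all genes, and nothing is read from this either, since the 6 h T3 change enters it.

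Groups whose ranges did not overlap were counted in the same way. They were found for 1 member with T3 at 6 h (11.5% of all genes), 6 with T3 at 24 h (15.1%), 5 with T3 under CHX (12.3%), 9 with CHX alone (62.7%) and 7 between the control times (51.1%). The comparisons share libraries: T3 at 6 h, CHX alone and the later comparison of times all use the 6 h controls, T3 with CHX and CHX alone both use the 6 h CHX libraries, and both 24 h comparisons use the 24 h controls.

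**Figure D2:**
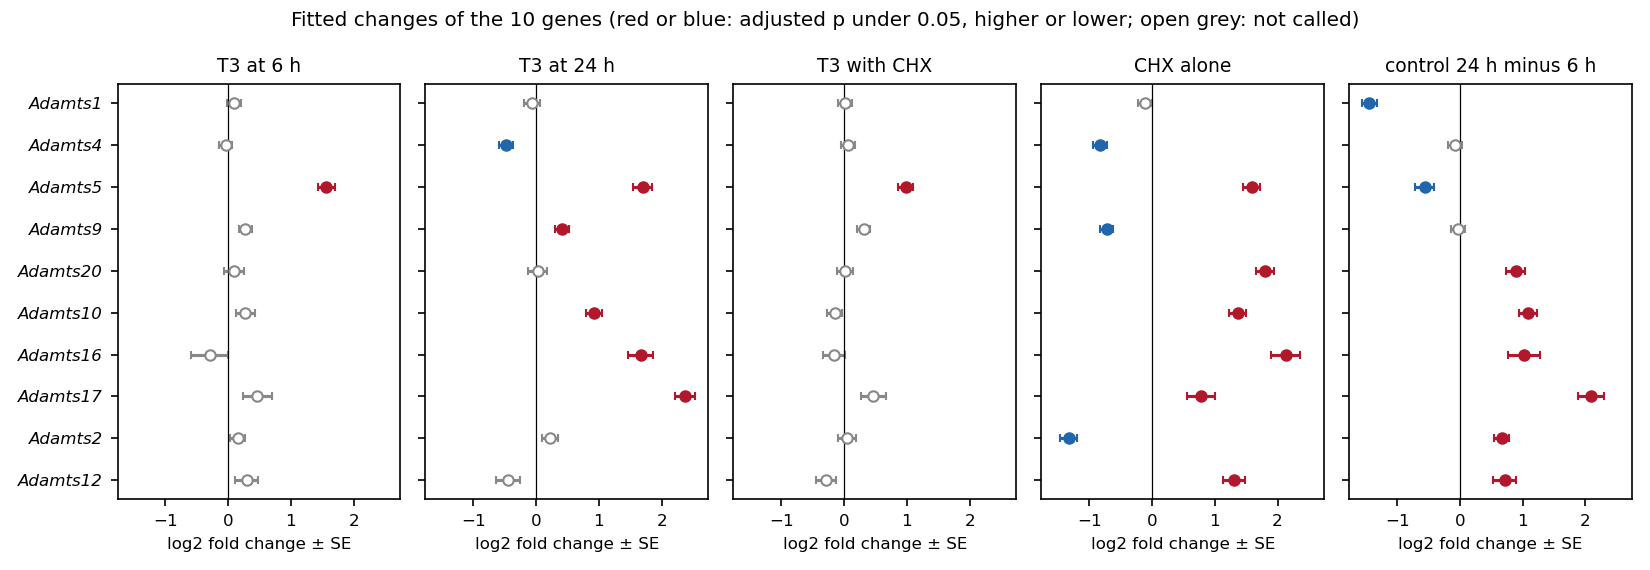
Each panel plots the fitted log2 fold change ± SE of the 10 ADAMTS genes in 1 comparison, with called genes in red (higher) or blue (lower) and the others open. With CHX alone 9 of 10 genes are called, where 67.5% of all genes are; the T3 panels without CHX hold the changes by which the genes were chosen.

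Adamts5, the aggrecanase also called aggrecanase-2, was the member that differed with T3 at both times and also under CHX (ENSMUSG00000022894, GRCm38 chromosome 16, 85856173 to 85901828). Its levels were 20.5, 24.9, 27.4 and 23.6 CPM in the 6 h controls and 74.6, 63.1, 69.9 and 77.3 CPM with T3. Every T3 library stood above every control, and the fitted change was 1.56 ± 0.14 log2 (SE), or 2.95-fold. After 24 h it was at 18.3, 13.9, 21.2 and 11.9 CPM in controls and at 39.0, 60.8 and 58.3 CPM with T3, again without overlap. That change was 1.70 ± 0.15 log2, and 1.62 ± 0.16 among the libraries of lane 6 at that time, without 24 h T3 replicate 3.

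CHX alone also raised Adamts5. The 6 h CHX libraries were at 67.0, 71.5, 75.8 and 75.8 CPM, 3.01-fold above control (1.59 ± 0.14 log2, adjusted p = 1.6e-10), and their range overlapped that of 6 h T3. With CHX plus T3 the levels were 139, 135, 157 and 140 CPM, above all CHX libraries, including CHX replicate 4 at 75.8 CPM, which shared lane 6 with them. In the presence of CHX, Adamts5 was thus higher with T3 by 0.98 ± 0.12 log2 (adjusted p = 2.6e-05). The 6 h T3 comparison did not use these libraries, but the genes were chosen with earlier results of all these data known. Lane as a covariate, where only CHX replicate 4 is on the lane of the CHX plus T3 libraries, gave 0.92 ± 0.21 log2.

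In CPM, T3 added 47.2 to the mean without CHX and 70.4 with it. As a ratio the joint treatment stood at 5.93 times control, where the product of both single ratios is 8.90. The fitted T3 effect was smaller with CHX than without it by 0.58 log2 (−0.58 ± 0.18, SE). That difference contains the 6 h T3 change by which Adamts5 was chosen, a choice that favours a negative difference, so it is given with no p-value.

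Adamts1, an aggrecanase that also cuts versican, lies 53.1 kb from Adamts5 on the same strand (ENSMUSG00000022893, GRCm38 chromosome 16, 85793827 to 85803113). It was at 117, 104, 109 and 119 CPM in 6 h controls and 133, 106, 113 and 130 CPM with T3, and these groups overlapped (0.10 ± 0.11 log2). Nor did it pass with CHX alone (−0.12 ± 0.11 log2, adjusted p = 0.37), with 96.5 to 112 CPM. With only those 2 groups fitted it passed as lower, at −0.17 ± 0.06 log2 (adjusted p = 0.0222; 0.0222 to 0.577 over all alternatives). With T3 under CHX its change was 0.01 ± 0.11 log2, with an interval of −0.22 to 0.24 log2. At 24 h the controls were at 33.2 to 50.3 CPM and the T3 libraries at 31.9 to 43.8 CPM.

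The neighbours thus had unlike profiles. Per length, the ratio of Adamts5 to Adamts1 was 0.106 ± 0.0173 (SD, n = 4) in 6 h controls, 0.291 ± 0.0119 (SD, n = 4) with T3, 0.344 ± 0.0113 (SD, n = 4) with CHX and 0.674 ± 0.0377 (SD, n = 4) with both. At 24 h it was 0.192 ± 0.0128 (SD, n = 4) in controls and 0.651 ± 0.0492 (SD, n = 3) with T3. The ranges of that ratio did not overlap between treated and control libraries at either time.

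Adamts4, known as aggrecanase-1 (ENSMUSG00000006403, chromosome 1, 171250421 to 171260637), and Adamts9, which cuts versican (ENSMUSG00000030022, chromosome 6, 92772699 to 92943492), fell with CHX. Adamts4 was at 7.88 to 10.9 CPM in 6 h controls and 4.91 to 5.83 CPM with CHX (−0.83 ± 0.11 log2, adjusted p = 3.2e-07). Adamts9 was at 37.2 to 44.2 CPM and 23.4 to 26.2 CPM (−0.72 ± 0.11 log2, adjusted p = 2.3e-06). Both groups were apart for both genes. With T3 at 24 h the values of Adamts4 were 9.81, 9.13, 8.72 and 8.68 CPM in controls and 5.61, 6.52 and 7.33 CPM with T3, so that all T3 libraries were lower. The fitted change was −0.48 ± 0.12 log2. Without 24 h T3 replicate 1 it was −0.39 and no longer called, and likewise with only the 24 h groups fitted, at −0.49.

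Adamts9 at 24 h was at 38.3, 41.4, 35.0 and 41.4 CPM in controls and 38.7, 57.7 and 58.7 CPM with T3. Here 24 h T3 replicate 1 lay within the control range, and the other T3 libraries above it. The change of 0.41 ± 0.11 log2 was called, but not without control replicate 1 (0.40), control replicate 3 (0.36), T3 replicate 2 (0.33) or T3 replicate 3 (0.31), nor with lane as a covariate (0.31) or when only the 24 h groups were fitted (0.40). Under CHX, T3 libraries were at 27.6 to 34.4 CPM, above the 23.4 to 26.2 CPM of CHX alone. That change of 0.31 ± 0.11 log2 did not pass (adjusted p = 0.206). It passed without 24 h T3 replicate 1, at 0.0365, and with only these groups fitted, at 0.0487, and ran from 0.0365 to 0.619 over all alternatives. At 6 h without CHX the change was 0.28 ± 0.11 log2, called only when 24 h T3 replicate 1 was left out.

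Exons of A730049H05Rik overlap those of Adamts9 on the opposite strand by 1381 bases, and the kit does not mark strand. A730049H05Rik rose by 1.69 ± 0.14 log2 with CHX, while Adamts9 fell. Its part in the counts of Adamts9 was not tested.

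Adamts20, the closest relative of Adamts9, rose with CHX (ENSMUSG00000022449, chromosome 15, 94270163 to 94465418). Its 6 h controls were at 7.55, 5.97, 6.52 and 4.62 CPM and the CHX libraries at 20.4, 21.7, 22.0 and 22.6 CPM. CHX raised it 3.48-fold (1.80 ± 0.15 log2, adjusted p = 8.3e-11). T3 did not bring it past the threshold in any setting: its change was 0.10 ± 0.16 log2 at 6 h, 0.03 ± 0.15 at 24 h and 0.01 ± 0.13 under CHX, where the interval ran from −0.25 to 0.28 log2.

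**Figure D3:**
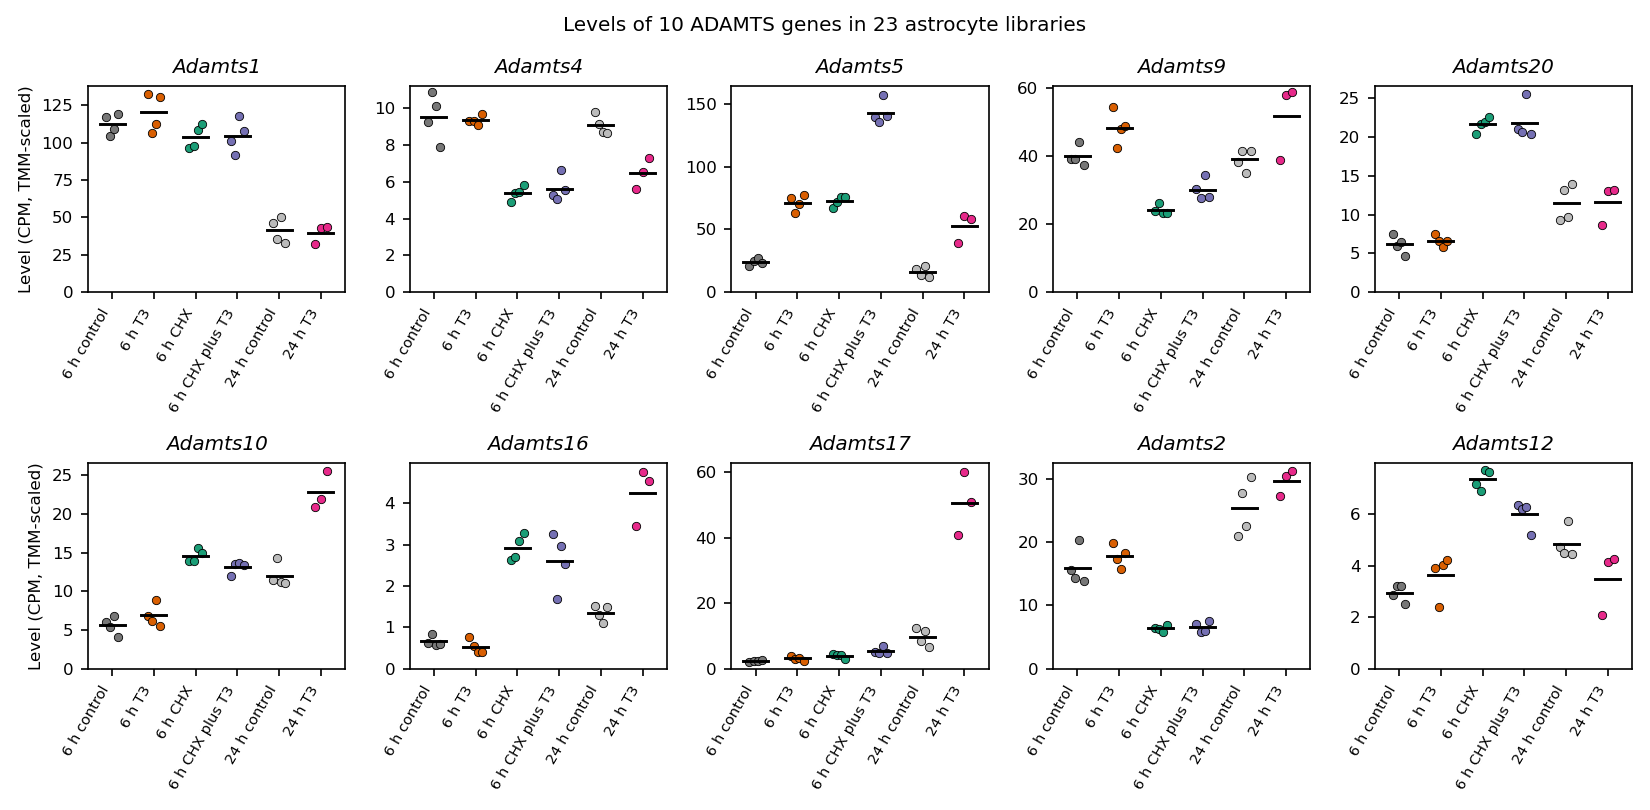
Each point is 1 library and each bar a group mean, in CPM from 0, for the 10 ADAMTS genes in the 6 groups. Adamts5 is raised by T3 at 6 h, at 24 h and on top of CHX, while Adamts17 reaches 40.8 to 60.03 CPM in 24 h T3 against 6.74 to 12.3 CPM in 24 h controls.

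Adamts17 and Adamts10 are both tied to fibrillin microfibrils, and mutations of either cause Weill-Marchesani-type disorders in people. Adamts17 had the widest span of group means, 22.0-fold from lowest to highest (ENSMUSG00000058145, GRCm38 chromosome 7, 66839735 to 67153171). It was at 2.10, 2.27, 2.27 and 2.58 CPM in 6 h controls and at 3.85, 3.09, 3.37 and 2.40 CPM with T3, which overlapped (0.47 ± 0.24 log2). At 24 h it was at 12.3, 8.59, 11.5 and 6.74 CPM in controls and at 40.8, 60.03 and 50.9 CPM with T3. The groups stood far apart, at 5.17-fold (2.37 ± 0.16 log2), and 2.37 ± 0.18 without 24 h T3 replicate 3. The T3 effect was larger at 24 h than at 6 h by 1.90 ± 0.29 log2.

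With CHX alone Adamts17 rose to 4.42, 4.31, 4.17 and 2.86 CPM (0.78 ± 0.23 log2, adjusted p = 0.0043). The lowest of these was replicate 4, the one CHX library on lane 6, in which the 6 oligodendrocyte lineage markers summed to 241 CPM against 149 to 151 CPM in the others. Within lane 5, without that library, the change was 0.91 ± 0.23 log2. T3 under CHX gave 4.68 to 7.03 CPM, above all CHX libraries, yet the change of 0.47 ± 0.20 log2 did not pass (adjusted p = 0.32). With lane as a covariate, where only CHX replicate 4 is on the lane of the CHX plus T3 libraries, it was 0.93 ± 0.34 log2 and did not pass either (adjusted p = 0.14; 0.14 to 0.805 over all alternatives). Its difference from the T3 effect without CHX was −0.001 log2.

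Adamts10 shared the late T3 difference on a smaller scale (ENSMUSG00000024299, chromosome 17, 33524204 to 33553782). It was at 4.17 to 6.87 CPM in 6 h controls and 5.58 to 8.92 CPM with T3. At 24 h the controls were at 11.5, 14.3, 11.2 and 11.1 CPM and the T3 libraries at 20.98, 22.0 and 25.6 CPM, all of them higher (0.93 ± 0.13 log2, 1.90-fold). The T3 effect at 24 h exceeded that at 6 h by 0.65 ± 0.19 log2. That difference was not called, except in DESeq2 and, at 0.80, without 6 h T3 replicate 3. CHX raised Adamts10 to 13.9 to 15.7 CPM (1.37 ± 0.14 log2, adjusted p = 2.3e-09), and T3 on top of CHX gave 12.0 to 13.7 CPM (−0.15 ± 0.12 log2, adjusted p = 0.62).

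Adamts16, whose closest relative is Adamts18 (ENSMUSG00000049538, chromosome 13, 70727802 to 70841811), was the scarcest member in both groups without CHX at 6 h, with 7 to 15 counts per library. It was at 0.582 to 0.835 CPM in those controls and 0.414 to 0.769 CPM with T3 (−0.29 ± 0.30 log2). At 24 h the controls were at 1.51, 1.30, 1.12 and 1.48 CPM and the T3 libraries at 3.47, 4.77 and 4.55 CPM. The change was 1.67 ± 0.20 log2 (3.17-fold), larger than at 6 h by 1.96 ± 0.37 log2. With CHX Adamts16 rose 4.38-fold to 2.63 to 3.29 CPM (2.13 ± 0.23 log2, adjusted p = 1.0e-08), while T3 on top of CHX left it at 1.70 to 3.26 CPM (−0.16 ± 0.18 log2, adjusted p = 0.72).

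Adamts2 removes the amino-terminal propeptide of fibrillar procollagens, and Adamts12 can cut the cartilage matrix protein COMP. Neither was called in any T3 comparison, and they went opposite ways with CHX. Adamts2 lies on chromosome 11 (ENSMUSG00000036545, 50602084 to 50807573) and Adamts12 on chromosome 15 (ENSMUSG00000047497, 11064790 to 11349231). Adamts2 was at 15.5, 14.4, 20.3 and 13.8 CPM in 6 h controls and at 6.50, 6.25, 5.86 and 6.91 CPM with CHX, a fall of every library below every control (−1.33 ± 0.13 log2, adjusted p = 2.9e-09). Adamts12 rose from 2.50 to 3.22 CPM in those controls to 6.89 to 7.71 CPM (1.31 ± 0.18 log2, adjusted p = 4.5e-07). For T3 at 24 h Adamts12 was at 2.08, 4.16 and 4.25 CPM against 4.45 to 5.74 CPM in controls, with no overlap and a change of −0.44 ± 0.19 log2. Both genes are known from fibroblasts. The 6 fibroblast and meningeal markers summed to 104 to 123 CPM in 24 h T3 and 139 to 296 CPM in 24 h controls, and of the 5 tested Dcn was called lower. Dcn was at 0.884 to 1.39 CPM in 24 h T3 and 1.07 to 11.5 CPM in 24 h controls, so these groups overlapped. Of the 5 tested, 1 had a positive change. In 6 h CHX the 6 markers summed to 44.1 to 243 CPM and in 6 h controls to 112 to 323 CPM. Their part in these results was not tested. In bulk RNA, fewer cells of a type and less RNA per cell cannot be told apart.

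Marker lists were also set beside the CHX changes. With CHX the 8 astrocyte markers summed to 6902 to 8331 CPM, against 8831 to 9511 CPM in 6 h controls. Of these 8 markers 5 were called lower, where 30.6% of all genes were called lower and 37% higher. The oligodendrocyte lineage sum was 149 to 241 CPM against 249 to 287 CPM, with 2 of 6 markers called lower and 2 higher. Neuron markers summed to 416 to 442 CPM against 465.7 to 503 CPM, with 1 of 6 called lower. Most of that sum was Map2, at a mean of 307 CPM with CHX and 323 CPM in controls, and Stmn2, at 112 and 123 CPM. Tubb3 was at 5.68 CPM with CHX and 28.5 CPM in controls, so much of the lower sum lay in that marker. The median change of the 6 neuron markers was 0.14 log2, and 3 of them had a positive change. Mural markers summed to 148 to 170 CPM against 185 to 224 CPM, with 1 of 2 tested called lower. Nearly all of that sum was Pdgfrb, at a mean of 155 CPM with CHX and 199 CPM in controls. None of these ranges overlapped, and the same 2 groups did not overlap for 62.7% of all single genes. The endothelial sum was 55.8 to 63.8 CPM against 15.6 to 19.4 CPM. That rise lay in Kdr, from 15.9 to 57.4 CPM, while Cdh5 was at 1.55 and 1.498 CPM and Cldn5 had no read in any 6 h CHX library. Map2, Stmn2, Tubb3, Pdgfrb, Kdr, Cdh5 and Cldn5 were named after their values were seen.

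With T3 at 6 h the astrocyte sum was 10070 to 10330 CPM, above all controls, and none of the 8 markers was called, where 3.77% of all genes were. The higher sum lay mostly in Gfap, at a mean of 5335 CPM with T3 and 4357 CPM in controls. Only 4 of the 8 had a positive change, and Aldh1l1 was at 697 CPM with T3 and 771 CPM in controls. With T3 at 24 h the astrocyte sum was 7994 to 8879 CPM against 8111 to 9793 CPM, and the astrocyte marker Slc1a3 was called lower (−0.17 ± 0.05 log2, adjusted p = 0.0307). The oligodendrocyte marker Olig2 was called lower there too (−0.36 ± 0.09 log2, adjusted p = 0.009), with sums of 227 to 280 CPM against 243 to 406 CPM. Gfap, Aldh1l1, Slc1a3 and Olig2 were named after their values were seen, and 2.68% of all genes were called lower with T3 at 24 h. The part of these shifts in the ADAMTS changes was not tested.

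Between the times, without T3, 6 members were higher and 2 lower in 24 h than in 6 h controls, against 56.6% of all genes called, 28.2% higher and 28.4% lower. Adamts1 fell from 112 to 41.4 CPM (−1.44 ± 0.12 log2, adjusted p = 2.9e-10) and Adamts17 rose from 2.30 to 9.80 CPM (2.09 ± 0.21 log2, adjusted p = 8.2e-09). Adamts10 rose by 1.09 ± 0.14 log2 (adjusted p = 3.6e-07), Adamts20 by 0.89 ± 0.15 and Adamts2 by 0.66 ± 0.12. All 6 h controls were on lane 5 and all 24 h controls on lane 6, so time and lane cannot be told apart in these libraries. With lane as a covariate 4 members stayed called, Adamts1, Adamts10, Adamts17 and Adamts20, with Adamts17 at 2.68 ± 0.40 log2, and Adamts5, Adamts16, Adamts2 and Adamts12 did not. In that fit the step from lane 5 to lane 6 rests on 6 h CHX replicate 4 alone. It therefore cannot part time from lane, and nothing is concluded from which members stayed called. Adamts5 fell by 0.56 ± 0.15 log2 (adjusted p = 0.002) and lost its call also without 24 h control replicates 2 and 4, at −0.28.

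Over the 6 groups the members fell into different orders. Adamts10, Adamts16, Adamts17, Adamts2 and Adamts9 had their highest mean in 24 h T3, but for Adamts2 and Adamts9 that group overlapped the next. Adamts5 and Adamts20 were highest in 6 h CHX plus T3, which for Adamts5 was apart from every other group and for Adamts20 overlapped 6 h CHX. Adamts12 was highest in 6 h CHX, apart from the rest. Adamts1 was highest in 6 h T3 and Adamts4 in 6 h control, and each overlapped the group that followed. Across the 23 libraries, which share the treatments, Adamts16 tracked Adamts10 (Pearson r = 0.892 of log2 CPM), Adamts2 tracked Adamts9 (0.841) and Adamts12 tracked Adamts20 (0.831), while Adamts17 and Adamts1 ran against each other (−0.801).

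Of the 9 other Adamts genes 7 were tested, Adamts13 and Adamts19 being near 0. None was called with T3 at 6 h. Adamts15, an aggrecanase, was at 13.8 to 16.1 CPM in 6 h controls and 2.91 to 4.17 CPM with CHX (−2.08 ± 0.12 log2, adjusted p = 2.0e-13). With T3 under CHX it was higher by 0.56 ± 0.14 log2 (adjusted p = 0.036), and with T3 at 24 h it changed by −0.38 ± 0.12 log2 (adjusted p = 0.049). Both values lay near the threshold, and neither call was tried in the alternative fits. Apart from CHX replicate 4, the CHX and CHX plus T3 libraries were on different lanes. With CHX, Adamts18 rose from 2.45 to 27.7 CPM (3.50 ± 0.16 log2, adjusted p = 2.2e-15), Adamts6, the closest relative of Adamts10, from 8.41 to 62.4 CPM (2.88 ± 0.17 log2) and the procollagen protease gene Adamts14 by 1.00 ± 0.21 log2. Of the 6 ADAMTS-like genes, whose proteins lack the protease domain, none was called with T3, and with CHX 3 were higher, Adamtsl1 (1.27 ± 0.14 log2), Adamtsl3 (0.33 ± 0.11) and Adamtsl4 (0.26 ± 0.08), and Papln was lower (−0.83 ± 0.21 log2).

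Genes for substrates and regulators of the proteases were counted in 3 lists, beside the 3.77% of all genes called with T3 at 6 h and the 7.09% at 24 h. Of 12 tested lectican and hyaluronan genes none was called with T3 at 6 h, at 24 h or under CHX, with medians of 0.08, −0.10 and 0.03 log2. With CHX 6 of them were lower and 1 higher, where 30.6% of all genes were lower and 37% higher. The link protein genes Hapln4 (−0.97 ± 0.18 log2) and Hapln1 (−0.93 ± 0.12) and the hyaluronan receptor gene Cd44 (−0.79 ± 0.09) fell, and the hyaluronan synthase gene Has2 rose (0.72 ± 0.20). Of 11 tested collagen, fibrillin and other substrate genes, the latent TGF-beta binding protein gene Ltbp1 was higher with T3 at 6 h (0.40 ± 0.07 log2, adjusted p = 0.0013). At 24 h the collagen gene Col2a1 was lower (−0.54 ± 0.10 log2, adjusted p = 0.0011). With CHX, 6 of these were lower and Fbn2 higher, beside the same 30.6 and 37% of all genes. The fibrillin genes parted, with Fbn1 at −1.38 ± 0.15 log2 and Fbn2 at 1.51 ± 0.17. Ltbp1 (−0.98 ± 0.08 log2) and Col5a1 (−0.80 ± 0.13) were lower too.

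Among 10 genes for inhibition, uptake and maturation, the syndecan gene Sdc4 was higher with T3 at 6 h (0.23 ± 0.06 log2, adjusted p = 0.037). Timp3, the inhibitor gene with the broadest reach over ADAMTS proteases, was called lower with T3 at 24 h (−0.31 ± 0.09 log2, adjusted p = 0.044). The T3 libraries were at 160.4, 245.7 and 245.9 CPM and the controls at 243.7 to 288.1 CPM. Only the lowest T3 library thus lay outside the control range, and this call was not tried with libraries left out. With CHX 6 of the 10 were lower and none higher, again beside 30.6 and 37% of all genes. The proenzyme convertase gene Furin was at −1.75 ± 0.06 log2 (adjusted p = 4.4e-18), the uptake receptor gene Lrp1 at −0.76 ± 0.13 log2 and Timp2 at −0.59 ± 0.04 log2. B3glct, whose enzyme adds glucose to thrombospondin repeats, was at −0.40 ± 0.08 log2. The median change with CHX was −0.56 log2 for the lectican and hyaluronan genes, −0.43 for the other substrates and −0.39 for the regulators, against 0.06 for all genes.

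**Figure D4:**
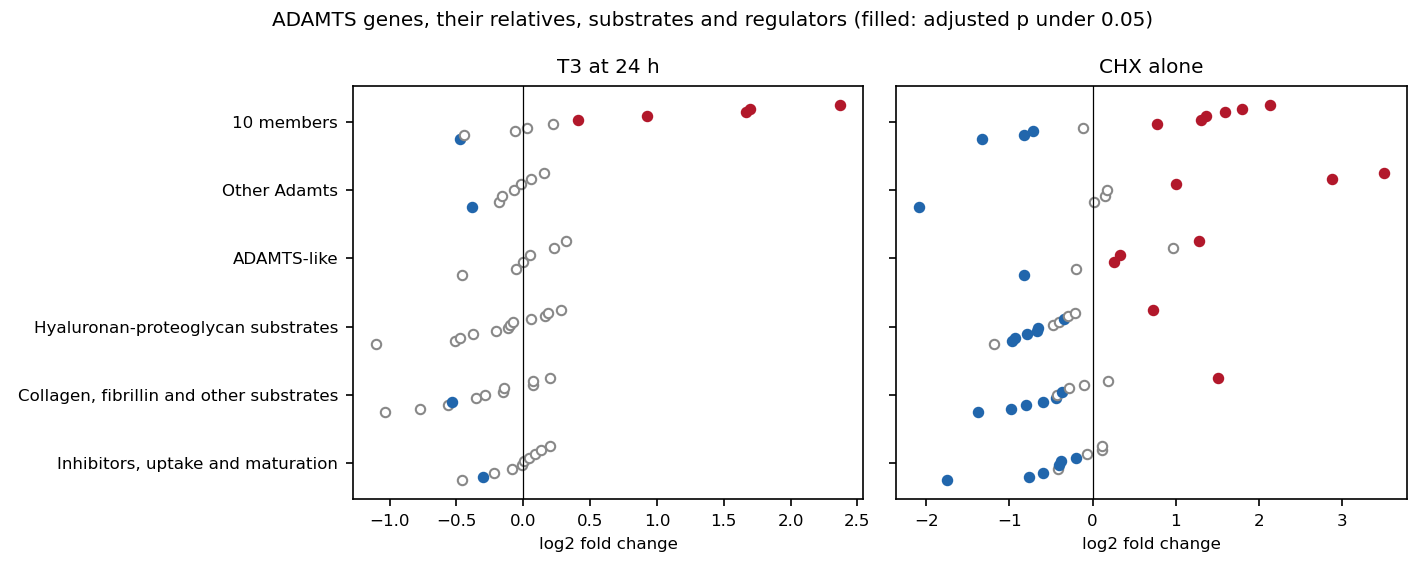
Each point is 1 gene at its fitted log2 fold change with T3 at 24 h (left) or CHX alone (right), by list, and the panels have different x axes. Filled points were called, red higher and blue lower; with CHX the substrate and regulator lists lie mostly below 0, with medians of −0.56, −0.43 and −0.39.

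The genes whose log2 CPM over the 23 libraries was most like that of a member were taken from 12858 protein-coding candidates, as a description. For Adamts5 they were Cldn12 (Pearson r = 0.970), Micall2 (0.969) and Slf2 (0.959). For Adamts17 they were Arvcf (0.947), Cend1 (0.931) and Pfkm (0.925). Adamts16 was followed most closely by Pter (0.931), Arl5c (0.923) and C1ql3 (0.917), and Adamts1 by Rab43 (0.981), Tmed7 (0.981) and Arl8b (0.980).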

How the data were processed

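Gene expression was measured by RNA-seq (200 ng RNA, NEBNext Ultra, a kit that does not mark strand, 50 nt single reads) in 23 libraries of cultured astrocytes in 6 groups. The deposited files hold raw read counts per Ensembl gene made by the authors, who named bcl2fastq, FastQC, Bowtie, TopHat, HTSeq and edgeR and build GRCm38, per the submitters' processing notes. Versions, strand setting and annotation release were not given in the sources used here. Left out were the 5 lines that name no gene, among them alignments that were not unique (30.7 to 42.3% of a file). Without strand, reads from a gene and an antisense partner cannot be told apart.

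Counts of all groups were fitted together in edgeR 4.0.16 (R 4.3.3; TMM scaling, filterByExpr with a minimum count of 10, quasi-likelihood F test with 17 residual degrees of freedom), with Benjamini-Hochberg adjustment over all 16087 genes and a threshold of 0.05. CPM used the TMM-scaled library sizes, and correlations used log2 CPM with a prior count of 2. The standard errors are from the fitted log2 change and its test. DESeq2 1.42.0, other scalings and filters, lane, replicate blocks and left-out libraries were alternatives. Symbols, exon lengths and positions are from GENCODE M21, which held 36345 of the IDs. The fitting code was tested on simulated counts.

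The members and the lists of related genes were chosen with earlier results of these data known. All members were named in every comparison, and from each list up to 4 called genes with the largest change with T3 at either time, with CHX alone and with T3 under CHX. For 4 members, the 3 genes most like each were taken by Pearson correlation among protein-coding genes averaging at least 1 CPM. No column was left unused. 1 result is not reported here.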

Additional observations from a re-analysis of the deposited data

Results flagged for a closer look

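In 10 of 85 checked groups of 4 libraries (50 of them for the ADAMTS genes, with 7 of the flags), the highest or lowest library lay far from the others by Dixon's criterion, which chance meets in about 1 of 20 groups. Adamts9 in 6 h CHX was at 26.2 CPM in replicate 2, against 23.4 to 23.8 in the others. Adamts10 was at 12.0 CPM in 6 h CHX plus T3 replicate 1, against 13.4 to 13.7, and at 14.3 CPM in 24 h control replicate 2, against 11.1 to 11.5. Adamts16 was at 0.835 CPM in 6 h control replicate 2, against 0.582 to 0.619. Adamts17 was at 2.86 CPM in 6 h CHX replicate 4, against 4.17 to 4.42. Adamts12 was at 5.18 CPM in 6 h CHX plus T3 replicate 4, against 6.21 to 6.33, and Adamts20 at 25.5 CPM in replicate 3 of that group, against 20.3 to 20.96.

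Oligodendrocyte lineage markers summed to 249 CPM in 6 h control replicate 2, against 285 to 287, and to 241 CPM in 6 h CHX replicate 4, against 149 to 151. Fibroblast and meningeal markers summed to 323 CPM in 6 h control replicate 3, against 112 to 128.

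The T3 effect differed between 24 h and 6 h for Adamts16, by 1.96 log2, and for Adamts17, by 1.90 log2. Both differences were known when the genes were listed.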

How the results depend on the processing

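Over 32 alternatives, all 27 called member values kept their direction, and 17 values that were not called changed sign in some setting. The number of members called stayed at its value for CHX alone (9, to 10 in the fit of only the groups compared) and lay between 4 and 6 for T3 at 24 h. It was 2 in place of 1 for T3 at 6 h with both 24 h T3 replicate 1 and 6 h CHX replicate 4 left out, and 2 in place of 1 for T3 with CHX with only the groups compared. Leaving out 1 library gave 1 to 2 for each of these. For the T3 effect with CHX less that without it, Adamts5 was the only member called in any alternative. There the number was 1 in place of 0 with only the groups compared, 1 with 24 h control replicates 2 and 4 left out, and 0 to 1 with 1 library left out. Between control times it was 4 in place of 8 with lane as a covariate, where the lane step rests on 6 h CHX replicate 4 alone. The cause of these changes was not tested.

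Genes called over all features ranged widely: 349 to 1191 for T3 at 6 h (606 as reported), 401 to 1557 for T3 at 24 h (1140), 138 to 660 for T3 with CHX (208), 30 to 966 for its difference (196), 32 to 521 for the difference between times (135), and 4414 to 9874 between control times (9105). CHX alone gave 10426 to 11366 (10862).

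Whether replicate numbers pair the libraries was not settled. Of 55 same-numbered pairs, 9 had deviations correlated above 0.1 (11 of 55 by the letters of the descriptions). The median correlation was 0.018 by number and by letter, and the highest was 0.334 and 0.297. Pairs of unlike number were not computed, so there is no reference for these values. With a replicate block by number the counts of members called were 1, 6, 1, 9, 0, 2 and 8, the values without it. The block gave 760 genes for T3 at 6 h (606 without it) and 381 for the T3 effect with CHX less that without it (196 without the block).

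Depth limits Adamts16 at 6 h, at 7 to 15 counts per library without CHX.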
